A study of Rattus norvegicus with 24 samples.

Results

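The genes of the intrinsic, or mitochondrial, apoptosis route were followed in the developing rat hippocampus and neocortex. They were taken by symbol from the deposited expression table: the effector Bax, the BH3-only genes Bbc3, Pmaip1, Bid and Bad, the antiapoptotic genes Bcl2, Bcl2l1 and Mcl1, and Apaf1 of the apoptosome. All 9 members were found, 1 entry each, among 17420 entries. The rule names symbols and no threshold on a level, and the members were chosen with earlier results of these data known.

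In the intrinsic route, BAX and its relatives permeabilize the outer mitochondrial membrane, which releases cytochrome c. Antiapoptotic proteins of the BCL2 family hold BAX and the BH3-only proteins in check, and BH3-only proteins relieve that restraint or activate BAX directly. Released cytochrome c assembles with APAF1 into the apoptosome, which activates caspase 9 and then the executioner caspases. In the fetal brain this route removes surplus and damaged progenitors and newborn neurons, and Bax, Bbc3 and Pmaip1 are textbook targets of the DNA damage factor p53. Much of the control over this family acts on the proteins themselves, through cleavage, phosphorylation and degradation, which transcript levels do not measure.

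RNA was sequenced from 24 Sprague-Dawley pups of both sexes on embryonic day 18, in 4 groups of 6 that each held 3 pups from each of 2 litters. Dams received saline, 22 mg/kg of the DNA methylating agent methylazoxymethanol acetate (MAM), or 7.5 mg/kg of Poly I:C, a synthetic double-stranded RNA that mimics viral infection, by intraperitoneal injection on gestational day 17, and tissue was taken 18 hours after the drug. Low Protein dams ate a diet with 6.1% protein from gestational day 11 to 18, and control dams one with 20.3% protein. The sources used here do not say what diet the dams given MAM or Poly I:C ate, or whether those on low protein were injected. No group carried a transgene. The leading digit of a pup's number was taken as its litter, so that MAM pup 2.1 is read as the first pup of the second MAM litter. The labels do not say so outright. The dam, not the pup, received the treatment, so p-values over pups measure the spread between pups of 2 dams a group.

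Expression was given by the authors as TPM, a transcript level relative to the total of its library. The number of reads behind a pup, estimated from the step between low values, was 25.1 to 65.2 M, with a median of 34.1 M in saline, 42.7 M for MAM, 31.0 M for Poly I:C and 44.6 M for Low Protein. Of 10 neocortex and hippocampus markers 9 were in the table and none was at 0, with summed levels of 206 to 376 TPM in saline, 303 to 367 TPM in MAM, 304 to 411 TPM in Poly I:C and 258 to 384 TPM in Low Protein. Poly I:C pup 1.3 and saline pup 2.1 stood apart, with median correlations to the other pups of 0.978 and 0.983 against 0.985 to 0.991 for the rest. Where leaving out either pup took a member's comparison with saline past the test or back over it, the value without that pup is given. The same was done for differences between treatments that passed with all pups.

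Few members differed from saline, and every difference was small. Against saline, Bbc3 was 1.20-fold higher in MAM, and Bid was lower in MAM and Poly I:C, at 0.874 and 0.825 of the saline level, both in limma at an unadjusted p under 0.05. At the same threshold Bax was 1.09-fold higher in Low Protein, and Bid there stood at 0.909 of saline. The fall of Bid in MAM missed that threshold under 3 other scalings. In Low Protein, Bax missed that threshold in 11 of 47 further fits and Bid in 34 of 46. Between treatments, Bbc3 was 1.29-fold higher in MAM than in Poly I:C and passed adjustment over all genes, the one member to do so in any comparison. Bcl2, Bcl2l1 and Pmaip1 passed the test in none of the 6 comparisons.

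In MAM, 2 of the 9 members passed an unadjusted p of 0.05 against saline in limma, where 9.61% of the 13365 genes tested did so. In Poly I:C 1 member passed against 9.15% of genes, and in Low Protein 2 members against 7.11%. No member passed at an adjusted p under 0.05, which 0.015% of genes did in MAM and 0% in Poly I:C and in Low Protein. The median log2 difference of the members was -0.02 in MAM, -0.03 in Poly I:C and -0.0041 in Low Protein, beside -0.07, 0.0027 and -0.02 over all genes tested. All 3 comparisons use the same saline pups. In a test across the 4 groups, Bbc3, Bid and Mcl1 had an unadjusted p of 0.00064, 0.00297 and 0.0110 (adjusted p = 0.121, 0.202 and 0.274), with 12.7% of genes under 0.05 and 0.157% past adjustment.

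**Figure D1:**
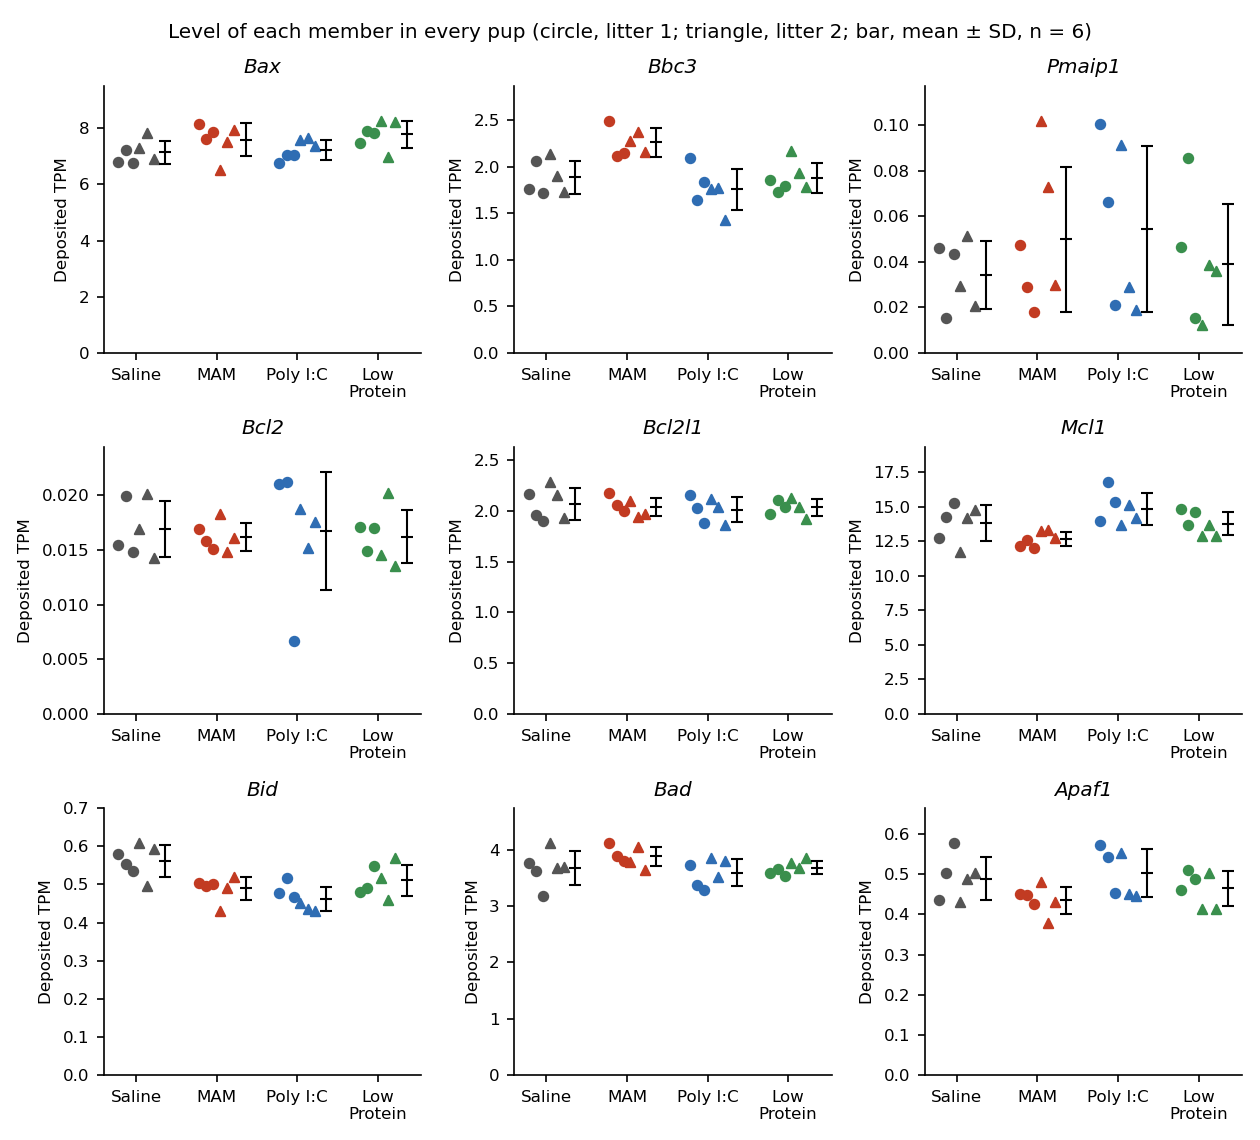
Deposited TPM of the 9 members in each of 24 pups by group (circles, litter 1; triangles, litter 2; bars, mean ± SD, n = 6); each panel has its own axis from 0. The MAM pups sit at 2.12 to 2.50 for Bbc3, above all Poly I:C pups, and 5 of 6 Poly I:C pups lie below all saline pups for Bid.

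Among the BH3-only genes, Bbc3 encodes PUMA, which binds every antiapoptotic BCL2 protein and is induced by p53. In saline pups Bbc3 ranged from 1.72 to 2.14 TPM with a median of 1.83. MAM pups ranged from 2.12 to 2.50 TPM with a median of 2.22. Thus 5 of the 6 MAM pups lay above all saline pups, and the lowest, MAM pup 1.2, fell just under saline pup 2.1. The means were 1.89 ± 0.179 TPM in saline and 2.26 ± 0.151 in MAM (SD, n = 6). The log2 difference was 0.27 with a standard error of 0.078 (limma, adjusted p = 0.465). Its unadjusted p was 0.00243, and an exact permutation test gave p = 0.00433. Each MAM litter mean was above each saline litter mean, by 0.23 to 0.30 on the log2 scale, and without saline pup 2.1 the difference was 0.30.

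Bbc3 in the other groups did not follow MAM. Poly I:C pups ranged from 1.43 to 2.09 TPM with a median of 1.77, and Low Protein pups from 1.73 to 2.18 TPM with a median of 1.83. Both ranges overlapped that of saline, and the log2 differences were -0.11 and -0.0041 (exact permutation tests, p = 0.284 and 0.955). The means were 1.76 ± 0.218 TPM and 1.88 ± 0.161 (SD, n = 6). The Poly I:C difference passed an unadjusted p of 0.05 in 2 of 47 further fits, at -0.19 without Poly I:C litter 1 and -0.16 without Poly I:C pup 1.1 (adjusted p in limma of 0.265 and 0.399).

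The test of MAM against Poly I:C showed the largest Bbc3 difference of the 6 comparisons. All MAM pups had more Bbc3 than all Poly I:C pups, which 0.494% of genes tested also showed in that direction. The log2 difference was 0.37 with a standard error of 0.078 (limma, adjusted p = 0.0262), and the exact permutation test gave p = 0.00216, the smallest that 6 against 6 pups allow. The adjusted p lay between 0.0113 and 0.403 over the alternatives and stayed under 0.05 in 36 of 46. It was 0.403 on the means of litters, 0.209 and 0.228 without MAM litter 1 and 2, and 0.0936 without Poly I:C litter 2. Without MAM pup 1.1, 1.3 or 2.2 it was 0.0642, 0.0527 and 0.0810, and without Poly I:C pup 1.2, 2.1 or 2.3 it was 0.0582, 0.0556 and 0.0506. Against Low Protein, Bbc3 in MAM differed by 0.27 on the log2 scale (limma, p = 0.00214 and adjusted p = 0.298; exact permutation p = 0.00866), where 8.57% of genes had an unadjusted p under 0.05. Without Low Protein litter 1 the difference was 0.21, and the limma p no longer passed.

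Bid encodes a BH3-only protein that caspase 8 cleaves to link death receptors to mitochondria. Its level was 0.495 to 0.609 TPM in saline with a median of 0.567. Poly I:C pups had 0.431 to 0.516 TPM with a median of 0.458. Hence 5 of 6 Poly I:C pups were below all saline pups. The log2 difference was -0.28 with a standard error of 0.066 (limma, p = 0.000348 and adjusted p = 0.184), and the exact permutation test gave p = 0.00433. Without saline pup 2.1 it was -0.25, without Poly I:C pup 1.3 it remained -0.28, and without Poly I:C litter 1 the adjusted p was 0.0349.

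MAM pups had 0.430 to 0.519 TPM of Bid with a median of 0.498, and Low Protein pups 0.459 to 0.568 TPM with a median of 0.503. In each of these groups 3 of 6 pups lay below all saline pups, and the other 3 overlapped them. The MAM difference was -0.19 on the log2 scale with a standard error of 0.066 (limma, p = 0.00725 and adjusted p = 0.506; exact permutation p = 0.00866). Its p was 0.0548 without MAM litter 2, and from 0.0772 to 0.250 when pups were scaled by the upper quartile, by the median of ratios or to common quantiles. The Low Protein difference was -0.14 (limma, p = 0.0491 and adjusted p = 0.698), the exact permutation test gave p = 0.0628, and in 34 of 46 further fits it missed 0.05, among them those without saline pup 2.1 (p = 0.113) and without Poly I:C pup 1.3 (p = 0.0519). Means were 0.561 ± 0.0421 TPM in saline, 0.490 ± 0.0306 in MAM, 0.463 ± 0.0316 in Poly I:C and 0.510 ± 0.0419 in Low Protein (SD, n = 6). In all 3 groups each litter mean was below both saline litter means.

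The remaining BH3-only members were Bad and Pmaip1. BAD is restrained by survival-factor signalling through phosphorylation, and its transcript was at 3.18 to 4.13 TPM in saline (median 3.69), 3.65 to 4.13 TPM in MAM (median 3.85), 3.29 to 3.85 TPM in Poly I:C (median 3.63) and 3.54 to 3.86 TPM in Low Protein (median 3.67). The groups overlapped, and no difference from saline passed the test (log2 0.08, -0.03 and 0.0056 in MAM, Poly I:C and Low Protein). For MAM, however, 4 of 47 further fits passed an unadjusted p of 0.05, at 0.15 with the median of ratios, 0.13 with quantile normalization, 0.12 without saline pup 2.1 and 0.14 without saline litter 2 (limma, adjusted p = 0.624, 0.606, 0.332 and 0.455). MAM was higher than Poly I:C by 0.11 on the log2 scale (limma, p = 0.0419 and adjusted p = 0.257; exact permutation p = 0.0455). This was lost in 13 of 47 further fits, with the highest p of 0.338 without Poly I:C litter 1, and without Poly I:C pup 1.3 the difference was 0.09 (limma, adjusted p = 0.371). For Bad in MAM against Low Protein the exact permutation test gave p = 0.0390, and limma p = 0.159. Pmaip1, which encodes the MCL1-binding protein NOXA, was at 0.0121 to 0.102 TPM, an estimated 3.22 to 28.9 reads a pup. The lowest estimates, 3.22, 4.83 and 6.43, rose in steps of more than a read. The gene span used for Pmaip1 was therefore too long, and these reads are overstated. The coefficient of variation of Pmaip1 within groups was 43.1% to 68.1%. The log2 differences from saline were 0.43, 0.48 and 0.02 with a standard error of 0.52, and the 95% interval in MAM ran from -0.65 to 1.51.

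Bax is the effector that forms pores in the mitochondrial membrane. Saline pups had 6.77 to 7.81 TPM (median 7.06), MAM pups 6.51 to 8.14 (median 7.73), Poly I:C pups 6.74 to 7.64 (median 7.19) and Low Protein pups 6.97 to 8.26 (median 7.86). The ranges overlapped, with 4 Low Protein pups above all saline pups. Low Protein was 0.12 higher than saline on the log2 scale, with a standard error of 0.053 (limma, p = 0.0298 and adjusted p = 0.679; exact permutation p = 0.0346). In 11 of 47 further fits it missed 0.05, with a p of 0.230 without saline litter 1. Bax in MAM differed by 0.09 (limma, p = 0.111; exact permutation p = 0.145). MAM pup 2.1 was the lowest of all 24 pups, and without it the difference was 0.13 and past an unadjusted p of 0.05 in limma (adjusted p = 0.347). Scaling by the median of ratios, the upper quartile or common quantiles also took the limma p for MAM just under 0.05, at differences of 0.15, 0.14 and 0.12.

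Of the antiapoptotic members, Mcl1 encodes a short-lived guard of BAX and BAK1 that neural progenitors depend on. Saline pups had 11.7 to 15.3 TPM (median 14.2), and MAM pups 12.0 to 13.3 (median 12.7). Poly I:C pups had 13.7 to 16.8 TPM (median 14.7), and Low Protein pups 12.9 to 14.9 (median 13.7). Every MAM pup was below every Poly I:C pup, as for 2.72% of genes tested, while both groups overlapped saline. The MAM to Poly I:C difference was -0.23 on the log2 scale with a standard error of 0.060 (limma, p = 0.00109 and adjusted p = 0.0639; exact permutation p = 0.00216). Its adjusted p was under 0.05 in 6 of 46 alternatives, 0.0294 without saline pup 2.1 among them. Against saline, MAM differed by -0.12 and Poly I:C by 0.11, neither past the test (exact permutation p = 0.0974 and 0.188). Saline pup 2.1 had the lowest Mcl1 of its group, and without it MAM differed from saline by -0.17, past an unadjusted p of 0.05 in limma (adjusted p = 0.290), as in 6 of 47 further fits in all. Against Low Protein the exact permutation test of MAM gave p = 0.0238, and limma p = 0.0653.

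Bcl2l1 encodes BCL-XL, the guardian of young postmitotic neurons. Over all 24 pups it kept to 1.86 to 2.28 TPM. Group means were 2.07 ± 0.157 TPM in saline, 2.04 ± 0.0867 in MAM, 2.01 ± 0.121 in Poly I:C and 2.03 ± 0.0792 in Low Protein (SD, n = 6). The 95% intervals of the log2 differences lay between -0.14 and 0.09, and all groups overlapped. Bcl2, the founding member of the family, was low on this scale at 0.00666 to 0.0212 TPM, an estimated 38.6 to 216 reads a pup. Its group means were 0.0169 ± 0.00257 TPM in saline, 0.0162 ± 0.00128 in MAM, 0.0167 ± 0.00543 in Poly I:C and 0.0162 ± 0.00241 in Low Protein (SD, n = 6). The log2 differences were -0.06, -0.10 and -0.06 with a standard error of 0.21. Poly I:C pup 1.3 had the lowest Bcl2, and without it the Poly I:C difference was 0.15. TPM here is a level divided by the whole genomic span of a gene, introns included, which puts genes with long introns such as Bcl2 at low values.

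Apaf1 encodes the scaffold of the apoptosome. Saline pups had 0.430 to 0.578 TPM (median 0.495), MAM pups 0.379 to 0.480 (median 0.440), Poly I:C pups 0.445 to 0.574 (median 0.498) and Low Protein pups 0.413 to 0.510 (median 0.474). All groups overlapped saline, and the log2 differences of -0.16 in MAM, 0.04 in Poly I:C and -0.07 in Low Protein missed the test (exact permutation p = 0.0649, 0.680 and 0.409). In MAM it passed an unadjusted p of 0.05 in 3 of 46 further fits, at -0.20 without saline pup 1.1, -0.20 without saline pup 2.1 and -0.19 without MAM pup 2.1 (limma, adjusted p = 0.478, 0.336 and 0.393). MAM was lower than Poly I:C by a log2 difference of -0.20 (limma, p = 0.0280 and adjusted p = 0.209), and an exact permutation test gave p = 0.0541. It was lost in 11 of 46 further fits, with the highest p of 0.175 without Poly I:C litter 1. Bbc3, Mcl1, Bad and Apaf1 were thus the 4 members that separated MAM from Poly I:C at an unadjusted p under 0.05, where 17.9% of genes did so, and Bbc3 was the 1 member past adjustment, as were 1.08% of genes. Bid was 0.14 higher in Low Protein than in Poly I:C (limma, p = 0.0450 and adjusted p = 0.980; exact permutation p = 0.0498), beside 4.89% of genes under 0.05, and this was lost in 21 of 46 further fits, the one without Poly I:C pup 1.3 among them (0.14; limma, p = 0.0538 and adjusted p = 0.733).

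**Figure D2:**
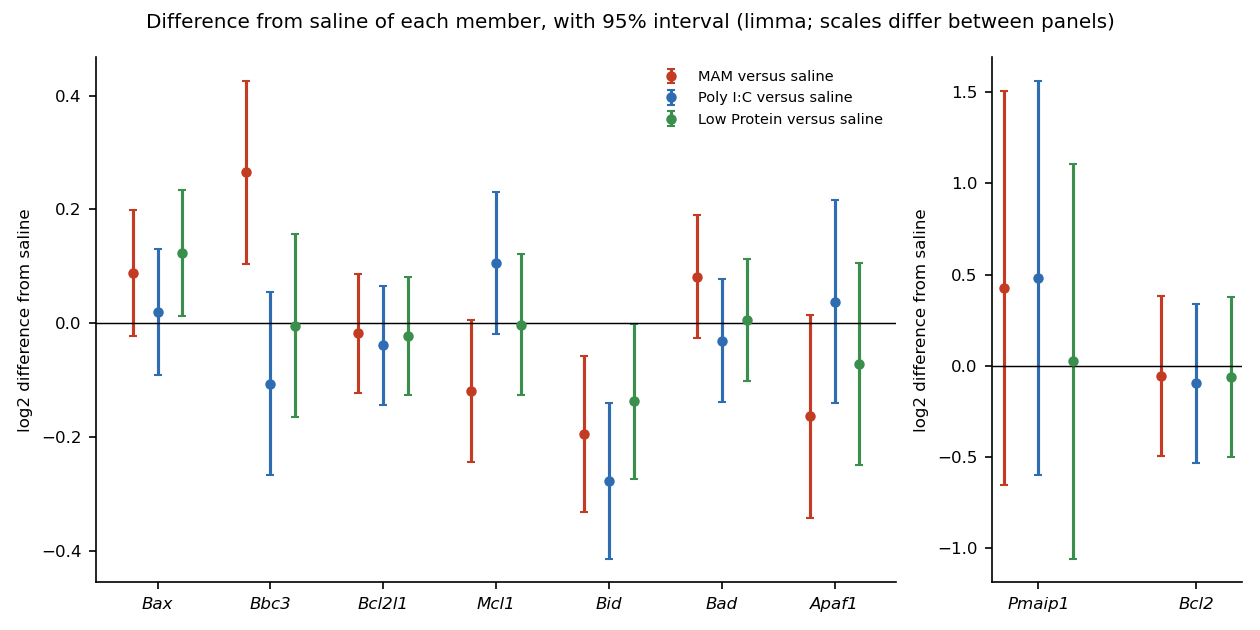
Log2 difference from saline of each member in MAM, Poly I:C and Low Protein, with the 95% interval from limma; Pmaip1 and Bcl2 have a wider axis of their own. The intervals of Bbc3 and Bid in MAM, Bid in Poly I:C, and Bax and Bid in Low Protein exclude 0, without adjustment for the number of genes.

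Because proteins of this family bind one another, log2 differences between members were taken in each pup and set against the mean of saline. A single scaling factor per pup cancels in such a difference, whereas quantile normalization does not. The differences between members are described without a test, and each only combines the differences of its 2 members given above. Bbc3 against Bcl2l1 was 0.28 ± 0.0872 in MAM (SD, n = 6), with 5 of 6 pups above all saline pups and none in Poly I:C or Low Protein. Bbc3 against Mcl1 stood at 0.38 ± 0.106 for MAM and at -0.21 ± 0.228 for Poly I:C, beside a wide spread of 0.246 in saline, whose highest pup, 2.1, stood at 0.41. The ratio of Bax to Bcl2l1 was 0.11 ± 0.135 in MAM, 0.06 ± 0.118 in Poly I:C and 0.15 ± 0.104 in Low Protein. In MAM and Low Protein 5 of 6 pups were above all saline pups for it, as were 3 of 6 in Poly I:C. MAM pup 2.1 and Poly I:C pup 1.1 were below all saline pups. Bax against Mcl1 was 0.21 ± 0.161 in MAM, -0.09 ± 0.143 in Poly I:C and 0.13 ± 0.154 in Low Protein, with 3, 0 and 2 of 6 pups above all saline pups. Bax against Bcl2 was 0.14 ± 0.201, 0.12 ± 0.633 and 0.18 ± 0.297 in the same order, each group overlapping saline. Bbc3 against Bid, both of which promote death, pairs the 2 members that passed in MAM and so restates those calls, at 0.46 ± 0.143 in MAM, 0.17 ± 0.178 in Poly I:C and 0.13 ± 0.182 in Low Protein.

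**Figure D3:**
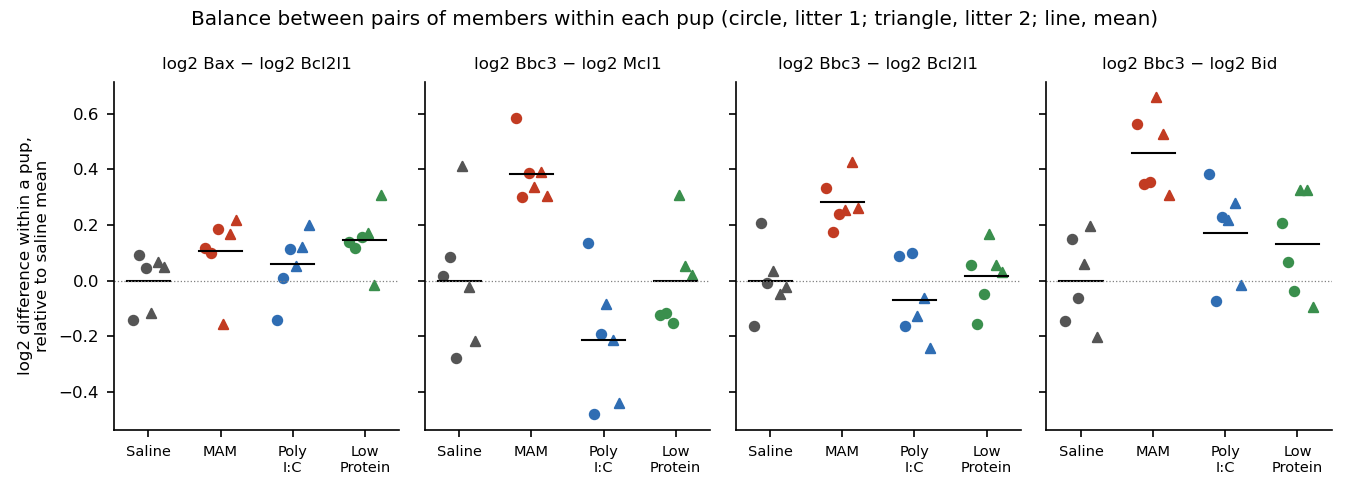
Log2 difference between 2 members in each pup, set against the mean of saline (circles, litter 1; triangles, litter 2; line, group mean). For Bbc3 against Bcl2l1 the MAM pups lie at 0.18 to 0.43 and the saline pups at -0.16 to 0.21.

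The DNA just upstream of the start was read for 7 of the 9 members from RefSeq (assembly GRCr8), as 250 bases; Bax and Bbc3 had no entry. Bid and Mcl1 are shown, the members with a window among the 3 that differed over the 4 groups at an unadjusted p under 0.05. Capitals mark the GC box, GGGCGG on either strand, a common element of promoters without a TATA box. Bid lies at chr4:155808320-155808569 on the minus strand with 3 GC boxes, and Mcl1 at chr2:185907918-185908167 on the plus strand with 1, written as its complement CCGCCC. Both are given 5′ to 3′ in the direction of transcription.
Bid: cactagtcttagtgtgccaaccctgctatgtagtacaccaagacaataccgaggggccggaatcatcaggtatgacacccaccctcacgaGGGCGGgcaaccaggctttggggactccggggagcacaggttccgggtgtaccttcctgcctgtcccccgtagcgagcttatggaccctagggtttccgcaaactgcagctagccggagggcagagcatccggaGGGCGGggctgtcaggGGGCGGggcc
Mcl1: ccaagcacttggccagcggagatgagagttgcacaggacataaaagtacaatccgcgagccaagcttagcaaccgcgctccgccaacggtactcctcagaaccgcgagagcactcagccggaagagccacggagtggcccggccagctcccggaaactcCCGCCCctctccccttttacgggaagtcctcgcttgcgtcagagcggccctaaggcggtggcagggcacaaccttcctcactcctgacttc

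A GC box was in the window of 4 of the 7 members, Bid, Mcl1, Apaf1 and Pmaip1, and in 57% of the windows of 10200 genes tested. No member window held a p53 half-site, which 5.92% of windows did, or the letters CCAAT, which 34.8% did, on either strand. The letters TATAAA were in the window of Bcl2 alone, and in 4.67% of windows of genes tested. None of these motifs is contained in another, and a match here is a description of the letters and not of a bound site.

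The rest of the pathway was read from a list of 58 genes, the members and p53 regulators and targets among them, of which 57 were in the table and tested. In MAM 6 were higher and 4 lower than saline at an unadjusted p under 0.05, 2 of them past adjustment, in Poly I:C 4 and 3, and in Low Protein 2 and 2. Of all genes tested, 9.61%, 9.15% and 7.11% passed in MAM, Poly I:C and Low Protein, and 0.015% passed adjustment in MAM. None of the 6 antiapoptotic BCL2 genes passed in any group. None of the 8 genes for the apoptosome and caspases passed in MAM, where 7 of 8 had a negative sign, as did 70.7% of all genes. The median of the 8 was -0.15 on the log2 scale.

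Of the 17 genes tested in the p53 list, 4 were higher and 1 lower in MAM at an unadjusted p under 0.05, beside 9.61% of all genes. Cdkn1a, the p53-induced cell cycle inhibitor p21, rose from 0.566 ± 0.0570 TPM in saline to 1.13 ± 0.0810 (SD, n = 6), a log2 difference of 1.00 (limma, adjusted p = 0.000485). Aen, a p53-induced exonuclease that degrades DNA in apoptosis, rose from 1.73 ± 0.150 to 2.20 ± 0.102 TPM (log2 0.35, adjusted p = 0.0189). Bbc3 had the next lowest p of the pathway list, followed by Phlda3, an AKT inhibitor under p53, at a log2 difference of 0.55 (exact permutation p = 0.0152). Birc5, the mitotic inhibitor of apoptosis survivin, was at 0.27 (exact permutation p = 0.00866). Outside the rule for named genes, Sesn2, a stress-response gene, was at 0.42 and Plk2, a kinase gene induced by p53, at -0.19 (exact permutation p = 0.00216 and 0.00433). Vdac2 and Vdac3, which encode channels of the outer mitochondrial membrane, were at -0.17 each (exact permutation p = 0.0216 and 0.0433). These 4 are named after their values were seen. Neither Bax, Pmaip1 nor Apaf1 passed in the same comparison.

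Other pathway genes met the test in the remaining groups without adjustment. In Poly I:C, those of lowest p after Bid were Casp2, an initiator caspase, at 0.27, Aen at 0.14, Bok, a BAX relative, at -0.24, and Diablo, which relieves caspase inhibition, at 0.10 (exact permutation p = 0.00866, 0.0260, 0.0693 and 0.0519). Named after their values were seen, Birc3, an inhibitor of apoptosis, at -0.65 and Zmat3, a p53 target, at 0.20 also passed there (exact permutation p = 0.0671 and 0.0779). In Low Protein they were Sesn2 at 0.43, Bok at -0.29, Bax and Bid (exact permutation p = 0.0346, 0.0325, 0.0346 and 0.0628). Bok thus had 0.844 of the saline level in Poly I:C and 0.819 in Low Protein.

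**Figure D4:**
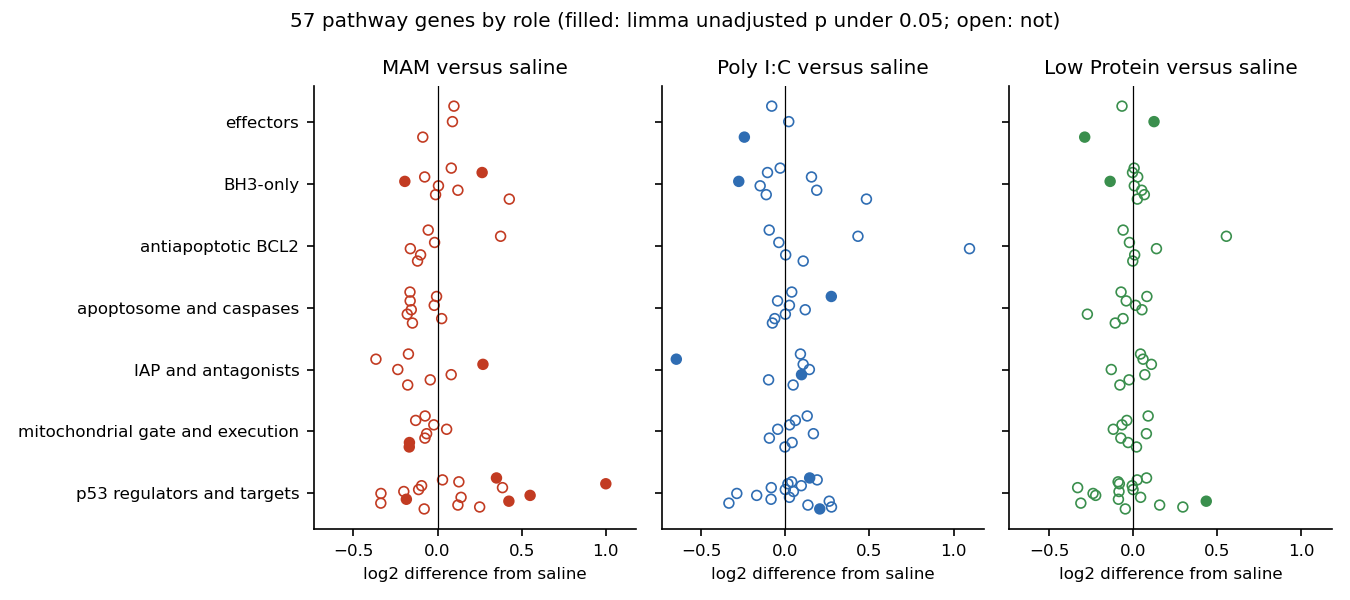
Log2 difference from saline of 57 genes by role, from the intrinsic route and from a list of p53 regulators and targets, one panel per treatment on a common axis; filled points passed an unadjusted p of 0.05 in limma and open points did not. In MAM the filled points to the right are 6 genes, 4 of them in the p53 list, with Cdkn1a farthest at 1.00, and none lies in the caspase or antiapoptotic list.

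Tissue composition was read from marker lists beside these values, since in bulk RNA fewer cells of a type and less RNA per cell cannot be told apart. Microglia markers were 2 of 6 higher in MAM (C1qa and Trem2), with summed levels of 7.23 to 9.77 TPM against 6.07 to 7.80 in saline, 6.00 to 9.05 in Poly I:C and 5.35 to 12.0 in Low Protein. Of 6 proliferation markers, 2 were higher in MAM (Ccnb1 and Cdk1) and 1 in Poly I:C, with sums of 27.9 to 37.6 TPM in MAM, 32.3 to 41.5 in Poly I:C and 29.0 to 33.1 in saline. These counts stand beside 9.61% of all genes in MAM and 9.15% in Poly I:C. No blood, choroid plexus or meninges marker passed in any group. In Low Protein 1 of the 9 neocortex and hippocampus markers tested was higher and 1 lower, beside 7.11% of all genes. Of the thalamus markers 1 passed, Lhx9, which was higher in Poly I:C, and none passed in MAM. The part of these cells, and of read depth, in the differences of Bbc3 and Bid was not tested.

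The genes whose levels moved most like Bbc3 over the 24 pups, out of 5086 with a mean above 1 TPM in every group, were Myg1 (Pearson r 0.77, Spearman rho 0.79), Eno1 (0.74 and 0.70), Klhdc3 (0.73 and 0.72), Fance (0.70 and 0.70) and Mtch1 (0.69 and 0.72). Within groups these r were 0.45 to 0.60. Those most like Bax were Nme2 (0.78 and 0.83), Nob1 (0.75 and 0.75), Rpl13a (0.75 and 0.76), Rps3 (0.74 and 0.75) and Mea1 (0.74 and 0.74). Bax and Bbc3 were not among each other's nearest, with an r of 0.18 and a rho of 0.24. Values of a pup share its library and scaling, and these figures are a description.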

How the data were processed

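Stranded mRNA libraries of hippocampus with neocortex, 1 for each of 24 pups, were sequenced as paired reads. The authors trimmed reads at phred 30 with a minimum length of 25, aligned them with STAR 2.4.1d to rn6, quantified RefSeq transcripts by expectation-maximization in Partek, and deposited TPM with an offset of 0.0001. Whether counting used strand is not given in the sources used here. In the deposited TPM, each pup summed to 70350.1, and low values of a gene, multiplied by its genomic span in GRCr8 (97.6% of genes matched), were whole multiples of a step within 0.05 of a read for 48.5% to 53.8% of values, where chance gives 10%. That step gave the estimated reads, which cover counting error only.

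Log2 TPM was fitted with limma 3.58.1 (R 4.3.3; eBayes with variance trend) over 24 pups and 13365 genes above the offset in at least 18 pups, with Benjamini-Hochberg adjustment over all of them. All 9 members passed this filter, and 5 of 9 the authors' limit of a lowest group mean above 1.0, which 5086 genes passed. Single members were also tested by exact two-sided permutation over 924 splits of 12 pups, with a smallest possible p of 0.00216. The script was tested on simulated data. Overlapping genes could share reads with Bcl2 and Bcl2l1 and none of those is in the table. Named pathway genes were those past adjustment in a comparison with saline or, where under 5, the 5 with the lowest unadjusted p under 0.05. The members and lists were chosen with earlier results of these data known. Alternatives were 3 filters, 2 pseudocounts, 3 scalings, other variance models, litter and replicate terms, and leaving out each pup and each of 8 litters. Litters were assigned from the leading digit of the sample number, which no label calls a litter. The consensus correlation within these litters was 0.0075.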

Additional observations from a re-analysis of the deposited data

Results flagged for a closer look

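In MAM, Bax had 1 pup far below the others, MAM pup 2.1 at 6.51 TPM against 7.52 to 8.14 TPM in the other MAM pups. The same pup was also far below its group for Bid, at 0.430 TPM against 0.492 to 0.519 TPM. Without it, the log2 differences from saline were 0.13 for Bax and -0.16 for Bid in limma (adjusted p = 0.347 and 0.370). In Poly I:C, Bcl2 of pup 1.3 was at 0.00666 TPM against 0.0152 to 0.0212 TPM in the other 5 pups. Of the 36 groups of 6 examined, 3 held such a pup, and chance gives about 1 in 20. Bbc3 differed between 2 treatments, by 0.37 on the log2 scale in MAM against Poly I:C (limma, adjusted p = 0.0262).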

How the results depend on the processing

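Bbc3 in MAM and Bid in Poly I:C kept their direction and an unadjusted p under 0.05 in every further fit, 47 for Bbc3 and 46 for Bid. The filter on a lowest group mean above 1.0 left Pmaip1, Bcl2, Bid and Apaf1 out and kept 5 of 9 members. With it, the number of members past an unadjusted p of 0.05 was 1 in MAM, 0 in Poly I:C and 1 in Low Protein. In MAM this number reached 3 over the alternatives. With the median of ratios or quantile normalization, Bax and Bad passed there beside Bbc3, and Bid did not. For Low Protein, where Bax and Bid lay close to the threshold, it was 1 with a value above the offset in all 24 pups, log2(TPM + 0.01), quantile normalization, only the 2 groups compared, a robust variance trend, litter as a random effect and the exact permutation test, and 0 with the median of ratios, the upper quartile and litter means. For MAM against Poly I:C it was 2 with litter means. For MAM against Low Protein it was 2 with only those groups in the fit and 3 in the exact permutation test. For Low Protein against Poly I:C it was 0 with a lowest group mean above 1.0, a value above the offset in all 24 pups, the median of ratios, quantile normalization, only the 2 groups and litter means. With the replicate number as a block the count in Low Protein was 1, all other counts of members were the same, and the adjusted p of Mcl1 in MAM against Poly I:C was 0.0480. Same-numbered pups of different groups had an r over 0.1 in 22 of 36 pairs (-0.41 to 0.55), short of every pair, and no label ties them, so the numbers were not used as a pairing.

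With 1 pup or 1 litter removed, the number of members past the threshold lay between 2 and 5 in MAM, 1 and 2 in Poly I:C, 0 and 2 in Low Protein, 2 and 4 across the 4 groups, 2 and 5 in MAM against Poly I:C, 0 and 2 in MAM against Low Protein, and 0 and 2 in Low Protein against Poly I:C. Without saline pup 2.1 it was 2 in MAM against Low Protein, where 1 member passed with all pups. A litter left out leaves 3 pups of 1 dam in that group. Log2 differences from saline that changed sign when a pup or litter was left out were, in MAM, Pmaip1 from -0.10 to 0.95 and Bcl2l1 from -0.058 to 0.022, and, in Poly I:C, Bax from -0.039 to 0.079, Bcl2 from -0.22 to 0.15, Bcl2l1 from -0.079 to 0.00098, Bad from -0.094 to 0.032 and Apaf1 from -0.021 to 0.096. In Low Protein they were Bbc3 from -0.068 to 0.060, Pmaip1 from -0.29 to 0.34, Bcl2l1 from -0.062 to 0.017, Mcl1 from -0.067 to 0.062 and Bad from -0.057 to 0.068. None of these had passed the test.

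Scaling reversed some differences that had not passed. In MAM, Bcl2 was 0.0092 with the median of ratios and 0.081 with quantile normalization, and Bcl2l1 was 0.047, 0.031 and 0.033 with the median of ratios, upper quartile and quantile normalization. In Low Protein, Bbc3 was 0.021, 0.00022 and 0.0076 and Mcl1 0.022, 0.0018 and 0.028 with the same scalings, Bcl2 was 0.010 with quantile normalization, and Bcl2l1 was 0.0024 with the median of ratios. Of all genes past an unadjusted p of 0.05 in MAM, 22.3% were higher, against 65.1%, 54.6% and 62.2% with the median of ratios, upper quartile and quantile normalization, while the median of all genes moved by under 0.1. The number of such genes was 1285 in MAM, 1223 in Poly I:C and 950 in Low Protein, and 576 to 1763, 507 to 1457 and 420 to 1226 over the alternatives. It was 474 without saline litter 1 and 1814 without saline pup 2.1 in MAM, and 640 without Poly I:C litter 2 and 2391 without Poly I:C litter 1 in Poly I:C. The cause of these shifts was not tested. Pmaip1 had an estimated 3.22 to 28.9 reads a pup, which overstates its reads, and each group came from 2 dams.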
